A study of Rattus norvegicus with 6 samples.

Results

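The miR-26 family was read in small RNA libraries of rat cortical neurons by the names rno-miR-26a-5p, rno-miR-26a-3p, rno-miR-26b-5p and rno-miR-26b-3p, and all 4 were present among the 649 mature miRNAs listed for each library. The neurons came from Sprague-Dawley embryos at embryonic day 18 and were used after 7 days in vitro according to the labels, although a figure legend of the study gives a younger age. They received 100 ng/ml brain-derived neurotrophic factor (BDNF), a secreted protein that promotes dendrite growth, or the vehicle, 0.1% BSA, for 20 min. There were 3 control and 3 BDNF libraries, numbered 1 to 3 in each condition. Embryos of both sexes were used, and per the methods the cultures of both conditions also held fluorodeoxyuridine and uridine, which block cell division. The study asked whether this short stimulation alters the levels of mature miRNAs and the choice between the strands of a precursor. From the same libraries it also reported changes in isomiRs, variants of a miRNA that differ at their ends, which are not treated here. Such a culture can still hold non-neuronal cells, and a change in the number of cells of a type cannot be told apart from a change in RNA per cell.

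A precursor hairpin is cut by Dicer into a duplex, from which Argonaute keeps one strand as the guide and discards the other. The guide recognises mRNAs mostly through its seed, bases 2 to 8. MiR-26 guides lie in genes for small phosphatases of the RNA polymerase II tail, which work with the repressor REST to silence neuronal genes in non-neuronal cells, and miR-26b can repress one of these phosphatases as neurons differentiate. MiR-26 is known in many tissues as a repressor of Ezh2. In neurons it has been tied to neurite growth, to the maintenance of synaptic potentiation and to binding of the Bdnf mRNA.

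The mature sequences are shown because the members' names hide how alike the 5p arms and how unlike the 3p arms are. All 4 were matched by name to the RefSeq sequence table (rat build GRCr8), with the seed in capitals.
miR-26a-5p: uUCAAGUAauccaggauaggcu
miR-26b-5p: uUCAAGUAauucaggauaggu
miR-26a-3p: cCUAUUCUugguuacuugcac
miR-26b-3p: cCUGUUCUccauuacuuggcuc

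Both 5p arms carried the seed UCAAGUA, which pairs with UACUUGA in a target. Counted from the 5′ end, miR-26b-5p differed from miR-26a-5p at 2 of 21 compared bases, C11U and C21U, both outside the seed. The 3p arms differed at 7 of 21 bases, including A4G within the seed, so that they have different seeds, CUAUUCU and CUGUUCU. Of the 649 listed names, 583 had a mature sequence, and none of these other than the members carried any of the 3 seeds. Trimming can remove the difference at base 21 but not that at base 11, and 1 mismatch was allowed in the assignment. Reads that match both 5p arms within that mismatch could have been assigned to either. How they were handled is not given in the sources used here. The count of the rarer miR-26b-5p is therefore less certain than its number of reads implies.

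The hairpins are shown to place the arms, which are in capitals, the 5p arm first. Both lie on the plus strand. Mir26a was at chr8:127633048-127633137, within the bounds of the protein-coding gene Ctdspl, and Mir26b at chr9:83425709-83425793, within those of Ctdsp1 (GRCr8). Whether the position is exonic or intronic was not read from the gene bounds, although both are known as intronic miRNAs.
Mir26a: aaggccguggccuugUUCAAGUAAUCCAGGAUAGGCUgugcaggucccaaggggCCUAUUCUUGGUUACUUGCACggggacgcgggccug
Mir26b: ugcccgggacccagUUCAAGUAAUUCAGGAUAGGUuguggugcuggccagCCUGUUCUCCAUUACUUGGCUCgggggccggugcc

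Library totals ranged from 10374120 to 12533029 reads assigned to miRNAs, so that 1 RPM, a read for each 1000000 miRNA reads of the library, stood for between 10.4 and 12.5 reads. All 5 neuronal marker miRNAs fixed for the check of the cell type were listed, and their summed level lay between 336184 and 412948 RPM. Most of this sum was miR-9a-5p alone, with 249572 to 331060 RPM. Of 5 markers of microglia and blood cells, 4 were listed, with 4.11 to 9.22 RPM in sum. The 3 oligodendrocyte markers summed to between 31.3 and 37.6 RPM, and 4 markers of vessels to between 133 and 204 RPM. The 2 markers of astrocytes and proliferating glia had the highest sum of the non-neuronal lists, between 5587 and 7495 RPM.

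The miR-26 family was present almost only as its 5p arms, and miR-26a-5p made up nearly all of it. MiR-26a-5p had 214255, 268970 and 234226 reads in control replicates 1 to 3 and 234018, 242993 and 264924 in the BDNF replicates. This was 20525, 21461 and 22578 RPM in control and 20031, 21546 and 22257 RPM in BDNF libraries, about 2% of all reads. The ranges of the conditions overlapped, before and after TMM scaling, whereas control and BDNF values did not overlap for 24 of 336 miRNAs (7.14%) after that scaling. Its level was 21521 ± 1028 RPM in control (SD, n = 3), against 21278 ± 1137 RPM after BDNF (SD, n = 3). By the mean over controls it stood at rank 10 of the 649 listed miRNAs, and in single libraries between rank 9 and rank 11.

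MiR-26b-5p, which carries the same seed, had 6106, 6705 and 4709 reads in control and 6512, 6077 and 5060 in BDNF replicates 1 to 3. The levels were 585, 535 and 454 RPM in control and 557, 539 and 425 RPM in BDNF libraries. Replicate 3 was the lowest in both conditions, and the conditions overlapped. The mean was 525 ± 66 RPM in control (SD, n = 3), against 507 ± 72 RPM after BDNF (SD, n = 3). It ranked 104 by the control mean, and between 98 and 116 in single libraries.

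The order of levels around these guides did not always exceed the spread between libraries. Just above miR-26a-5p stood miR-7a-5p, a neuronal miRNA bound by the circular RNA Cdr1as, with 23210 ± 1092 RPM in control samples (SD, n = 3). Just below it stood miR-30a-5p, another miRNA that can bind the Bdnf mRNA, with 19984 ± 2071 RPM (SD, n = 3). The control values of both overlapped with those of miR-26a-5p, so neither position is settled. The control range of miR-99a-5p, at rank 8, began at 23454 RPM and that of miR-30d-5p, at rank 12, ended at 20451 RPM. Neither of these overlapped with miR-26a-5p in controls. For miR-26b-5p, the neighbours let-7d-3p, miR-384-3p, miR-182 and miR-409a-5p all overlapped with it, with control means between 518 and 560 RPM. These comparisons are of read counts of molecules of nearly equal length, and ligation in library preparation favours some sequences over others.

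The 3p arms were close to the limit of detection. MiR-26a-3p had 6, 8 and 7 reads in control and 11, 5 and 6 reads in BDNF replicates 1 to 3, or 0.629 ± 0.051 RPM in control (SD, n = 3), against 0.630 ± 0.272 RPM after BDNF (SD, n = 3). MiR-26b-3p had 14, 16 and 11 reads in control and 5, 7 and 18 reads in BDNF replicates 1 to 3. Its mean was 1.23 ± 0.15 RPM in control (SD, n = 3), against 0.854 ± 0.578 RPM after BDNF (SD, n = 3). For miR-26b-3p, BDNF replicates 1 and 2 lay below all controls and BDNF replicate 3 above all of them. The exact 95% Poisson interval was 1.62 to 11.7 reads for the 5 reads of BDNF replicate 1 and 10.7 to 28.4 reads for the 18 of BDNF replicate 3. These intervals cover counting error only.

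**Figure D1:**
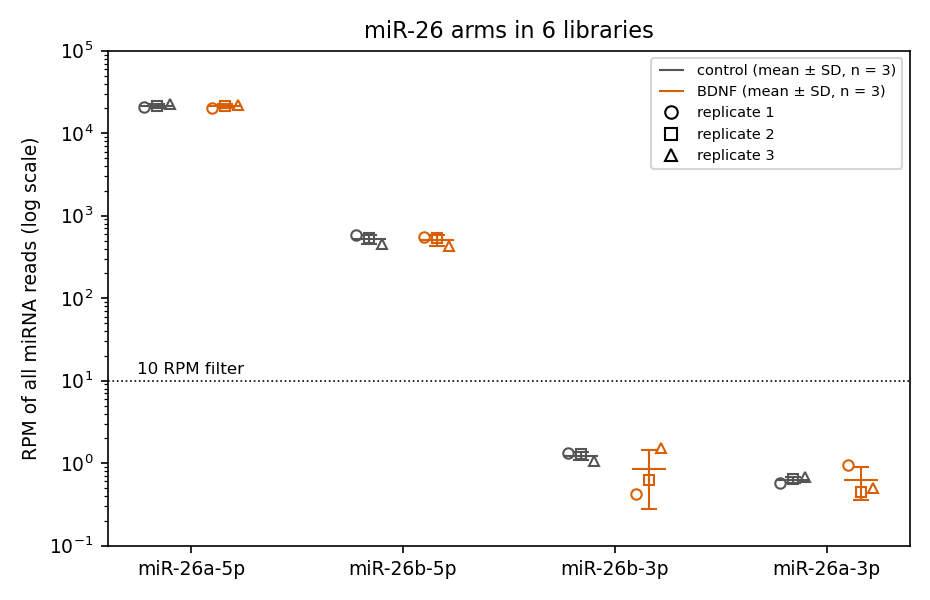
Level of each miR-26 arm in RPM (log axis) in 3 control and 3 BDNF libraries; symbols are single libraries by replicate number, horizontal bars the mean and whiskers the SD (n = 3). MiR-26a-5p lies between 20031 and 22578 RPM and miR-26b-5p between 425 and 585 RPM, whereas both 3p arms lie below the 10 RPM filter (dotted line).

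Although the less abundant locus by its 5p arm, miR-26b gave more 3p reads than miR-26a in 5 of 6 libraries. The shares below are of reads, and unequal ligation of the arms was not tested. Among reads of miR-26a, the 3p arm took 28.0, 29.7 and 29.9 per 1000000 in control and 47.0, 20.6 and 22.6 per 1000000 in BDNF replicates 1 to 3. The exact 95% binomial intervals of all 6 libraries overlapped, for instance 10.3 to 61.0 per 1000000 in control replicate 1. Among reads of miR-26b, the 3p arm took 0.229%, 0.238% and 0.233% in control and 0.0767%, 0.115% and 0.354% in BDNF replicates 1 to 3. Here the BDNF libraries lay on both sides of the controls, and the intervals of BDNF replicate 1 (0.0249% to 0.179%) and BDNF replicate 3 (0.210% to 0.560%) did not overlap. The 3p share was thus higher for miR-26b than for miR-26a in every library.

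The miR-26a strand ratio lay at the upper end of the precursors compared. With 0.5 reads added to each arm, 5p/3p stood at 14.96 ± 0.04 on the log2 scale in control (SD, n = 3), against 15.02 ± 0.61 after BDNF (SD, n = 3), corresponding to about 31937 5p reads for each 3p read in controls. In the control mean this was the highest of 182 precursors with reads from each arm in all libraries, out of 234 with both arms listed. Precursors that lacked reads of an arm in a library, whose ratios can be extreme, were left out of these ranks. Reads were counted by mature name, and the sequence table held 1 entry with the sequence of miR-26a-5p. Reads from a locus outside that table, if there is one, could not be told apart in the 5p count. The next was let-7g, with a mean of 14.55 and control libraries between 13.79 and 15.26, which overlapped with miR-26a. After it came miR-21, with a mean of 14.21 and an overlapping range, and the next, miR-20a, at 11.75, did not overlap. For miR-26b it stood at 8.69 ± 0.03 in control (SD, n = 3), against 9.32 ± 1.10 after BDNF (SD, n = 3), at rank 14 of 182. The median size of the log2 ratio over the 182 precursors, in either direction, was 3.88.

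Argonaute is known to favour strands that start with U, and both kept miR-26 arms start with U while both discarded arms start with C. Each base was counted separately over all precursors, the miR-26 pair included. Among precursors with at least 10 RPM in an arm and both sequences in the table, the major arm started with U in 68 (47.9%) and the minor arm in 26 (18.3%). A first base C was found in 22 major arms (15.5%) and 40 minor arms (28.2%). The first base alone does not separate miR-26a from miR-26b.

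**Figure D2:**
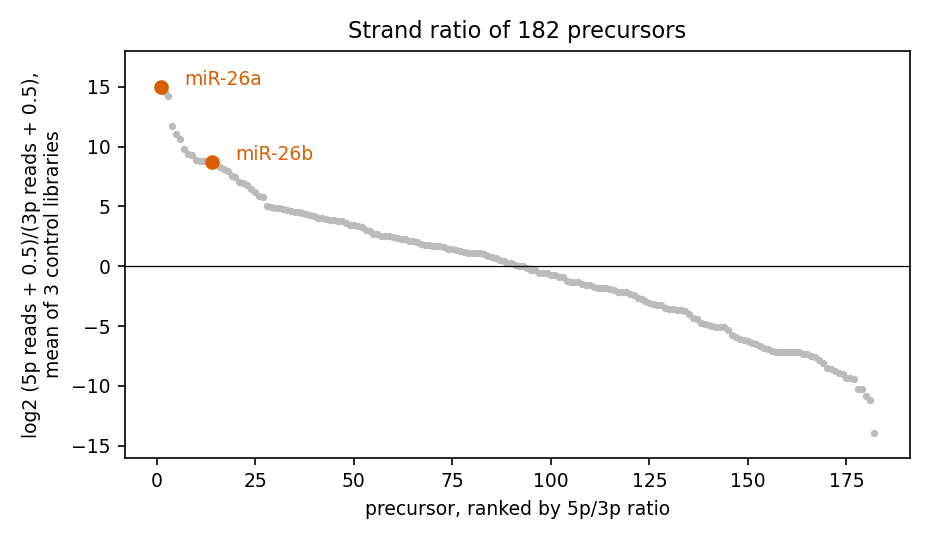
Log2 ratio of 5p to 3p reads (0.5 added to each), mean of the 3 control libraries, for 182 precursors with reads from both arms in all libraries, ordered by that ratio. MiR-26a is at the top with 14.96 and miR-26b at rank 14 with 8.69 (orange).

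The response to BDNF was tested for the whole table, and no change was detected for the miR-26 guides. The log2 fold change (BDNF/Ctrl) of miR-26a-5p was 0.0060 (standard error 0.093), with a 95% interval from a 0.86-fold to a 1.17-fold level. For miR-26b-5p it was -0.020 (standard error 0.20), with a 95% interval from 0.71-fold to 1.37-fold. The unadjusted P-values of edgeR's quasi-likelihood test were 0.95 and 0.92, and both adjusted P-values were 0.999. Of 336 miRNAs tested with edgeR, 0 (0%) passed at an adjusted P-value of 0.05, and 10 (2.98%) at an unadjusted one, 5 higher (1.49%) and 5 lower (1.49%). DESeq2 likewise called 0 after adjustment and 12 unadjusted. The absolute change was smaller than that of miR-26a-5p for 14 of the 336 miRNAs and smaller than that of miR-26b-5p for 53, where the median size was 0.092.

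Control and BDNF libraries with the same replicate number resembled each other, and with the number as a block the intervals of the guides became narrower. They ran from 0.91-fold to 1.11-fold for miR-26a-5p and from 0.88-fold to 1.09-fold for miR-26b-5p. The unadjusted P-values with the block were 0.92 and 0.68, while among all tested miRNAs 69 of 336 (20.5%) had an unadjusted P-value below 0.05, 26 higher (7.74%) and 43 lower (12.8%), and 0 (0%) an adjusted one in edgeR. Larger changes than these intervals allow were therefore not seen for miR-26a-5p or miR-26b-5p, and smaller ones cannot be resolved with 3 samples per condition.

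The family can also be read as the summed level of its 5p arms, since both present the same seed. In RPM divided by the TMM factor of each library, the sum was 21253, 23057 and 21308 in control and 22195, 22759 and 20911 in BDNF replicates 1 to 3. It was higher after BDNF in replicate 1 and lower in replicates 2 and 3, with log2 differences of 0.063, -0.019 and -0.027 within the numbers. The difference of the log2 means was 0.0055, with P = 1 in a two-sided exact permutation test, for which 0.1 is the smallest value that 3 samples against 3 can give. Without TMM factors the difference was -0.017 with an exact P of 0.8, so its sign depended on the scaling.

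The 3p arms did not reach 10 RPM and were tested only in the fit without this filter, where 15 of 649 miRNAs (2.31%) had an unadjusted P-value below 0.05 and 0 (0%) an adjusted one. MiR-26a-3p had a log2 fold change of 0.033 (standard error 0.45) and miR-26b-3p one of -0.51 (standard error 0.44). Both had an adjusted P-value above 0.99 in edgeR's quasi-likelihood test. The intervals were wide, from 0.51-fold to 2.06-fold for miR-26a-3p and from 0.35-fold to 1.40-fold for miR-26b-3p. For miR-26b-3p the value depended on single BDNF libraries. Without BDNF replicate 1 the log2 fold change was -0.20, without BDNF replicate 2 it was -0.33 and without BDNF replicate 3 it was -1.14, with adjusted P-values from 0.87 to above 0.99 in edgeR.

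The choice of strand was compared by the log2 5p/3p ratio in limma. Where both arms passed the filter, 3 of 83 precursors (3.61%) had an unadjusted P-value below 0.05 (10 or 12% with the replicate block) and 0 (0%) an adjusted one. Neither miR-26 precursor was among these, and both were read from the fit over 182 precursors without the filter, with 6 (3.3%) and 0 (0%). The ratio of miR-26a differed by 0.057 (standard error 0.44) between BDNF and control samples, and limma gave an adjusted P-value of 0.98. That of miR-26b differed by 0.63 (standard error 0.50), with an adjusted P-value of 0.97, and BDNF replicate 3 again went against the others. The difference for miR-26b was 0.19 without BDNF replicate 1, 0.47 without BDNF replicate 2 and 1.25 without BDNF replicate 3, and limma's adjusted P-value was 0.53 or more. The 95% intervals ran from -0.92 to 1.03 for miR-26a and from -0.48 to 1.75 for miR-26b on the log2 scale, so that at 5 to 18 reads of the 3p arm per library changes within these bounds cannot be told from none.

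**Figure D3:**
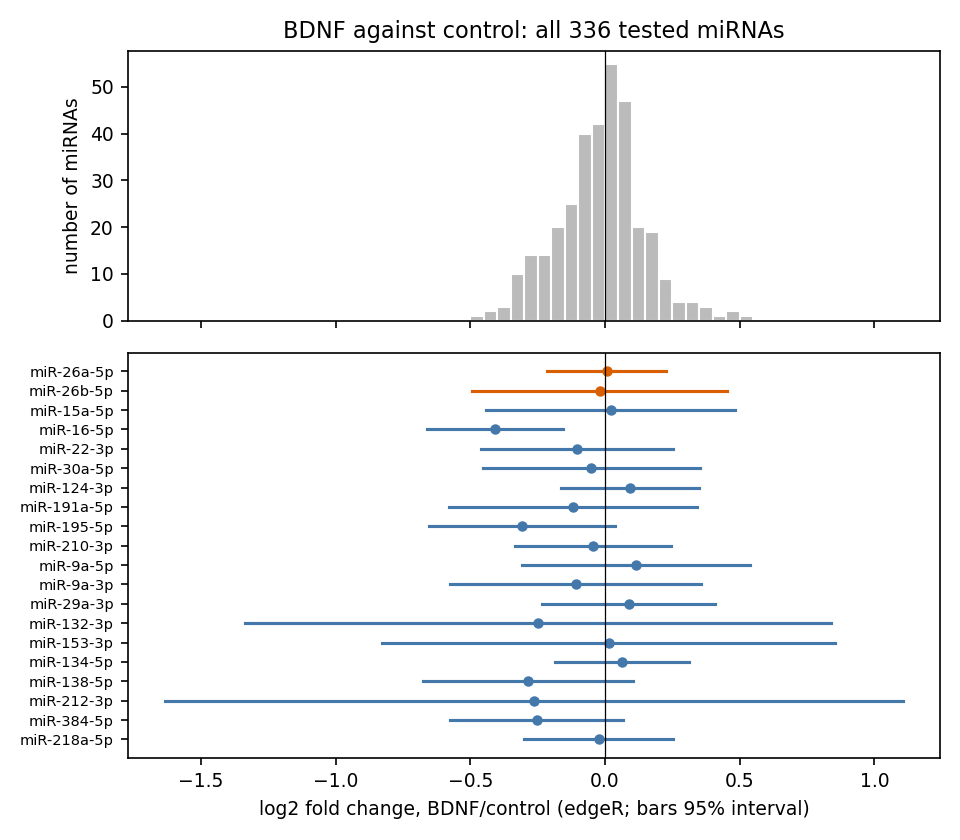
Top, histogram of the log2 fold change (BDNF/Ctrl) of 336 tested miRNAs. Below, the log2 fold change with its 95% interval from edgeR for the miR-26 guides (orange) and for members of 3 related lists (blue); the intervals of both miR-26 guides include 0, with estimates of 0.0060 and -0.020.

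While BDNF left both guides within the spread, the balance between them differed from one replicate number to the next. The ratio of miR-26a-5p to miR-26b-5p reads was 35.1, 40.1 and 49.7 in control and 35.9, 40.0 and 52.4 in BDNF replicates 1 to 3. Libraries with the same number were within 0.074 of each other in log2 ratio, whereas libraries of the same condition with different numbers were 0.15 to 0.54 apart. The share of miR-26b among 5p reads was 2.77%, 2.43% and 1.97% in control and 2.71%, 2.44% and 1.87% in BDNF replicates 1 to 3. The exact 95% binomial interval was 2.70% to 2.84% in control replicate 1 and 1.92% to 2.03% in control replicate 3, for counting error only. Between conditions the log2 ratio differed by 0.035, with an exact two-sided permutation P of 0.8. That permutation test ignored the replicate numbers, and 0.1 is the smallest value it can give. The within-number differences were 0.034, -0.0047 and 0.074. An exact test over these pairs, which flips the signs of the differences, gave P = 0.5, where 0.25 is the smallest possible value. No difference between the guides in their response to BDNF was detected, but tests with such limits cannot exclude one.

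The members were then compared between the numbers one by one. In an edgeR fit with condition and number as terms, chosen after the values were seen, the normalized level of miR-26b-5p was 0.68-fold in replicate 3 relative to replicate 1, a log2 difference of -0.55. The test over the 3 numbers gave an adjusted P-value of 0.0024 in edgeR, but 162 of 336 miRNAs (48.2%) passed the same test, so that this was common. For miR-26a-5p the log2 difference was -0.029, with an adjusted P-value of 0.47. With library size only, the log2 difference was 0.14 for miR-26a-5p (adjusted P-value of 0.30) and -0.38 for miR-26b-5p (adjusted P-value of 0.015), so how the change of the ratio divides between the guides depended on the scaling. Without BDNF replicate 3 the log2 difference of miR-26b-5p was -0.50 and the adjusted P-value 0.055 in edgeR, and 66 miRNAs passed. Without control replicate 3 the values were -0.57 and 0.038, and again 66 miRNAs passed.

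**Figure D4:**
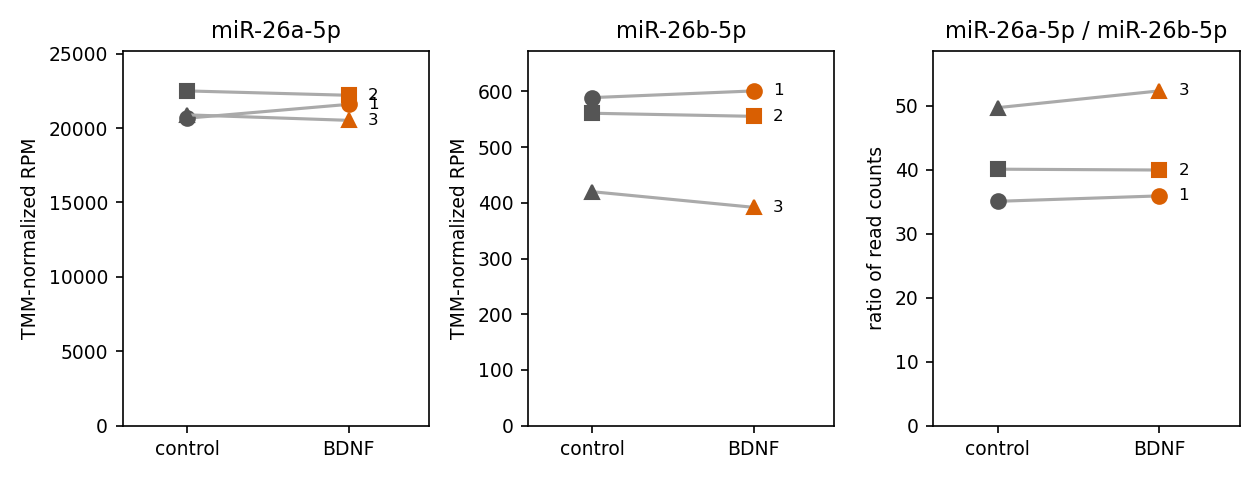
TMM-normalized RPM of miR-26a-5p (left) and miR-26b-5p (middle) and the ratio of their reads (right); lines join libraries with the same replicate number, given at the right of each line. The ratio lies near 35 to 36 for number 1, at 40 for number 2 and between 49.7 and 52.4 for number 3, in both conditions.

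Over the 6 libraries, the level of miR-26a-5p and that of miR-26b-5p were only loosely related, with r = 0.56 for log2 normalized RPM. The miRNAs most like miR-26b-5p among the 336 tested were let-7i-5p (r = 0.993), miR-21-5p (r = 0.980) and let-7f-5p (r = 0.980). Let-7 miRNAs promote differentiation, and miR-21 is abundant in glia and dividing cells. Most like miR-26a-5p were miR-708-5p (r = 0.906), miR-98-5p (r = 0.886) and miR-6321 (r = 0.880). These are descriptions over 6 points that share their normalization and, in pairs, their replicate number.

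MiR-21-5p had 7277, 6615 and 5571 RPM in control and 7480, 7033 and 5602 RPM in BDNF replicates 1 to 3. It was lowest in replicate 3 of each condition, as miR-26b-5p was, with a log2 difference of -0.58 between replicates 3 and 1. Since miR-21-5p was named above for its likeness to miR-26b-5p over these same libraries, this match is no separate observation. MiR-21-5p is also a marker fixed for astrocytes and proliferating glia, of which 2 of 2 were listed. They summed to between 5587 and 7296 RPM in control and between 5616 and 7495 RPM in BDNF libraries. The other marker, miR-146a-5p, was lowest in replicate 2 instead, at 9.81 and 11.3 RPM. Of 4 vessel markers, miR-143-3p and miR-126a-3p were also lower in replicate 3 than in replicate 1, with log2 differences of -0.69 and -0.49 (adjusted P-values of 0.00074 and 0.020 in edgeR), but miR-143-3p was lowest in replicate 2. For miR-126a-5p the log2 difference was -0.23, with an adjusted P-value of 0.24 in edgeR, and miR-145-5p was not among the tested miRNAs. The neuronal markers did not move together. MiR-9a-5p, which makes up most of their sum, differed by -0.43 on the log2 scale between replicates 3 and 1, and miR-138-5p by 0.43 in the other direction (both with an adjusted P-value of 0.013 in edgeR). For miR-124-3p, miR-128-3p and miR-137-3p the log2 differences lay between -0.048 and -0.036. The part of these cells in the difference of miR-26b-5p was not tested.

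Related miRNAs were read from 3 lists drawn from general knowledge, but with earlier results of these data known. EdgeR called no member of any list after adjustment. Of 13 other miRNAs that can bind the Bdnf mRNA, 12 were listed and 8 passed the filter. Of these 8, 1 was lower at an unadjusted P-value below 0.05, miR-16-5p, and none was higher, beside 1.49% of all tested miRNAs in each direction. The study had already reported miR-16-5p as lower after BDNF in these same libraries, so its place here is no separate observation. Their median log2 fold change was -0.078, against -0.0015 for all tested miRNAs. With the replicate block 2 of the 8 were lower, miR-16-5p and miR-195-5p, beside 12.8% of all tested miRNAs. MiR-15a-5p, of the same seed family, had a log2 fold change of 0.021 (standard error 0.19). MiR-30a-5p, close to miR-26a-5p in level, had a log2 fold change of -0.051 (standard error 0.17).

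Of 8 miRNAs tied to REST and neuronal differentiation, all were listed and 6 passed the filter, with a median log2 fold change of 0.050. None of the 6 had an unadjusted P-value below 0.05, and with the block 1 did, miR-132-3p, which was lower, beside 12.8% of all tested miRNAs. MiR-9a-5p and miR-124-3p, which repress REST or its partners, had log2 fold changes of 0.12 (standard error 0.18) and 0.094 (standard error 0.11). They therefore stood within their errors, as the miR-26 guides did.

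Of 7 miRNAs of synaptic plasticity, all were listed and 6 passed the filter, with a median log2 fold change of -0.25. None of the 6 had an unadjusted P-value below 0.05 without the block, and 4 had one with it, all lower, namely miR-132-3p, miR-138-5p, miR-212-3p and miR-384-5p. Over all tested miRNAs, 43 of 336 (12.8%) were lower at this threshold with the block. MiR-384-5p, which acts with miR-26a in synaptic potentiation, had 369 ± 67 RPM in control (SD, n = 3), against 305 ± 42 RPM after BDNF (SD, n = 3), and its adjusted P-value with the block was 0.17 in edgeR. Whether its response differed from that of miR-26a-5p was not tested.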

How the data were processed

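6 libraries were analysed, 3 per condition, which the methods call biological replicates. Per the methods, the authors clipped adapters, discarded poor reads and those under 15 nucleotides, assigned the rest to rat miRBase v21 miRNAs with Miraligner (1 mismatch, trimming or addition of up to 3 nucleotides) and deposited raw read counts. Its version is not given in the sources used here. RPM were computed from column sums. Mature miRNAs (336) averaging 10 RPM or more in either condition were tested with edgeR 4.0.16 (R 4.3.3), TMM factors and the quasi-likelihood test without block, with Benjamini-Hochberg adjustment. Strand ratios were fitted with limma 3.58.1 and a variance trend, with 0.5 reads added. Scripts were tested on simulated data. Alternatives were DESeq2 1.42.0, other scaling, no filter, a replicate block, 5 reads added and leaving out each library.

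The standard error in edgeR is the size of the log2 fold change divided by the square root of F. In limma it is the size of the log2 difference divided by that of the t statistic. Same-condition libraries differed by more than sampling noise (chi-square per degree of freedom at least 146.7). Deviations from the group mean correlated between libraries of the same number with r = 0.81, 0.49 and 0.89 over 336 miRNAs, so the numbers were taken as pairs. The members and lists were chosen with earlier results of these data known. Named miRNAs were the members, 2 neighbours in level on each side of a 5p arm, the 3 most correlated with each 5p arm, list members and markers, and precursors at the top of the strand ratio, the last chosen after their values were seen. MiR-182-5p and miR-223-3p were not among the names listed, although miR-182 was, without an arm in its name. IsomiRs were not analysed here.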

Additional observations from a re-analysis of the deposited data

How the results depend on the processing

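No miR-26 arm or strand ratio passed an adjusted P-value of 0.05 for BDNF under any alternative run. Where estimates were near 0, the signs were not stable. The summed 5p level and the log2 ratio of the 5p arms had exact tests only, whose P-values cannot fall below 0.1, so passing 0.05 was not possible for them. The log2 fold change of miR-26a-5p was -0.016 with library size only, and the summed 5p level -0.017 with RPM from column sums. Leaving out single samples gave -0.020 to 0.045 for miR-26a-5p, -0.15 to 0.14 for miR-26b-5p, -0.39 to 0.23 for miR-26a-3p and -1.14 to -0.20 for miR-26b-3p. It gave -0.021 to 0.044 for the summed level, -0.12 to 0.17 for the log2 ratio of the 5p arms, -0.15 to 0.41 for the strand ratio of miR-26a and 0.19 to 1.25 for that of miR-26b, which was 0.42 with 5 reads added to each arm. The number of miRNAs with an unadjusted P-value below 0.05, 10, became 6 with library size only and 69 with the replicate block. It ranged from 3 to 32 when samples were left out (32 without control replicate 1, 3 without control replicate 2, 6 without control replicate 3, 5 without BDNF replicate 2). For strand ratios the number was 3 where both arms passed the filter, 6 without the filter and 10 with the replicate block, and 1 to 8 when samples were left out (8 without control replicate 1, 5 without BDNF replicate 3, 1 without control replicate 3 or BDNF replicate 2). The cause was not tested. The replicate block changed no call of a miR-26 arm or strand ratio. Between replicate numbers, the log2 difference of miR-26b-5p was -0.54 with relative log expression factors and -0.38 with library size only, and -0.57 to -0.50 when samples were left out. The number of miRNAs that differed fell to 66 without either sample of replicate 3. The depth limits the 3p arms, at 5 to 18 reads per library, and not the guides, where the spread between 3 samples limits the precision.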
